A study of Mus musculus with 384 samples.

Results

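Pdcd1, Havcr2 and Lag3 encode the inhibitory receptors PD-1, TIM-3 and LAG-3 of T cells, and Cd274 encodes PD-L1, a ligand of PD-1. These 4 genes were taken by name from the 23420 genes of a single-cell expression matrix, with earlier results of these data known, so their places among all genes are given as descriptions. Their expression was followed in T cells that had infiltrated B16F10 melanomas, a transplantable mouse skin tumour, in C57BL/6 mice. The study asked about the part of IL-27, a cytokine that acts through Il27ra, in gene expression of such cells. Single cells were profiled by Smart-seq2, a plate method that amplifies full-length transcripts and carries no molecular identifiers.

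The groups were CD8 cells of source KO4, CD8 cells of source WT4, CD4 cells of KO4 and CD4 cells of WT4, each on 1 plate. The genotype label was IL27raKO for KO4 and wild type for WT4, and all groups shared the strain and the tumour. KO CD8, WT CD8, KO CD4 and WT CD4 stand below for the plates so labelled. The treatment label mentions CD8+ cells only. The grouping follows the sample titles, which give CD4 for 2 of the plates. Neither the age of the mice nor the number of mice behind a source was given, so genotype, source and plate cannot be told apart. Differences between KO and WT therefore have no replicate check, and no p-value is attached to them.

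Each plate held 94 single-cell wells, a well labelled population and a well without a cell. A gene was called detected at 1 FPKM (fragments scaled to transcript length and library size) or more, and cells with 1000 or more detected genes were kept. This left 77 KO CD8, 72 WT CD8, 78 KO CD4 and 74 WT CD4 cells, with median detected genes of 2243, 2530.5, 2091 and 2047. The file gives no read depth, but from the steps between low values a single read in a 2 kb transcript stood for about 0.84 FPKM (median over cells). Cd8a was detected in 81.8% of KO CD8 and 84.7% of WT CD8 cells, and Cd4 in 91.03% of KO CD4 and 89.2% of WT CD4 cells. On the other lineage's plates, Cd4 was in 1.30% of KO CD8 and 0% of WT CD8 cells. Cd8a was in 0% of KO CD4 and 2.70% of WT CD4 cells, but Cd8b1 was in 23.1% and 25.7% of them. Cd8a and Cd8b1 together reached at most 4.79 FPKM in a KO CD4 cell and 709 FPKM in a WT CD4 cell. Tyr, a pigment cell gene, was detected in 97.4% to 100% of the kept cells of every plate, while the summed level of the 5 melanoma markers had plate medians between 8.07 and 10.3 FPKM. Transcripts of the targeted gene Il27ra were detected in 57.1% of KO CD8, 51.4% of WT CD8, 47.4% of KO CD4 and 36.5% of WT CD4 cells. The deleted stretch is not described in the labels, so these values do not check the genotype. Any of the 7 myeloid markers was detected in 19.5%, 20.8%, 20.5% and 16.2% of KO CD8, WT CD8, KO CD4 and WT CD4 cells. Results without the cells that held such markers are given at the end.

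PD-1 restrains signalling from the T cell receptor when it binds PD-L1 or PD-L2 on another cell, by recruiting phosphatases. TIM-3 binds several ligands, among them galectin-9, and LAG-3 binds MHC class II molecules. T cells that meet antigen for a long time, as in tumours, often carry these receptors together, a state known as exhaustion, and regulatory T cells can carry them too. PD-L1 is best known on tumour and myeloid cells and is induced by interferons, but activated T cells also express it.

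In mm10, Pdcd1 lies on the minus strand of chromosome 1 from 94038305 to 94052553. Havcr2 lies on the plus strand of chromosome 11 from 46454935 to 46481255. Lag3 lies on the minus strand of chromosome 6 from 124904361 to 124911705, and Cd4 lies 16140 bases away. Cd274 lies on the plus strand of chromosome 19 from 29367455 to 29388095, and Pdcd1lg2, which encodes PD-L2, begins 22824 bases away. Of the 4 genes, 3 had a promoter entry in RefSeq (GRCm38.p6), and these promoters are shown because Pdcd1 and Havcr2 were detected in the same cells, as described below, whereas Cd274 was not tied to them. Each runs from 250 bases before to 50 bases after the start site, 5′ to 3′ on the strand of the gene, and capitals mark matches to the AP-1 motif TGANTCA or the RUNX motif TGTGGTN on either strand.
Pdcd1, chr1:94052504-94052803, minus strand: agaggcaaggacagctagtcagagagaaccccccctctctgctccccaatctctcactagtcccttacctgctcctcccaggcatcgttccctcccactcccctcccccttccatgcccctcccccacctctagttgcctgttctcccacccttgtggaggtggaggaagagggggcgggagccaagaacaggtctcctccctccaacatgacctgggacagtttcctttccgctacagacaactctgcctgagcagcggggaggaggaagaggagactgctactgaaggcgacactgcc
Havcr2, chr11:46454681-46454980, plus strand: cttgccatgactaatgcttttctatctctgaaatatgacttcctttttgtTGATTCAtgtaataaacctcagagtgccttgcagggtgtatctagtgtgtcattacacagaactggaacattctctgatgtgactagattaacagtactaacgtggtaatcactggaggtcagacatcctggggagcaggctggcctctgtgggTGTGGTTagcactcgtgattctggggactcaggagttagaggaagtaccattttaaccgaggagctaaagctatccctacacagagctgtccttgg
Cd274, chr19:29367188-29367487, plus strand: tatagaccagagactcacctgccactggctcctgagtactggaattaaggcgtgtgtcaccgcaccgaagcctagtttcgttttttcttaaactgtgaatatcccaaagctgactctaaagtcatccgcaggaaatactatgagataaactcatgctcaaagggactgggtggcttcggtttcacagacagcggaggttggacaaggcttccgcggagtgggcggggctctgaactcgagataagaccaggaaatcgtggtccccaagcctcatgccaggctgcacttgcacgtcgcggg

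The Havcr2 promoter held 1 AP-1 match, at -200 from the start site, and 1 RUNX match, at -46, and the other promoters shown held neither motif. Over all 27025 promoters of the same length, 7.93% held an AP-1 match and 16.8% a RUNX match. The GC box GGGCGG was found once each in the Pdcd1 and Cd274 promoters and in 35.9% of all promoters. The NFAT core GGAAAN was found 2 times in each of these and in 61.2% of all promoters. No match to the STAT motif TTCNNNGAA or to the core of the interferon-stimulated response element was found in the 3 windows, against 8.47% and 3.49% of all promoters. A match is a run of letters and not a measured site.

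The receptor transcripts had their highest detected shares on the WT CD8 plate, which also had the highest median of detected genes. Pdcd1 and Lag3 were detected in most WT CD8 cells and Havcr2 in 45.8% of them, while on the other 3 plates each receptor was found in a minority. Cd274 ran in another order, with its highest share in KO CD4 cells and its lowest in WT CD8 cells. Apart from Pdcd1 and Lag3 in WT CD8, each gene was not detected in most cells of a plate. Over the 4 plates together, most cells with detection stood at 100 FPKM or more, though only 3 of 10 did for Cd274 in WT CD8, so the share of cells with detection and the level in those cells are given separately.

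Pdcd1 was detected in 25 of 77 KO CD8 cells (32.5%, exact 95% interval 22.2 to 44.1), 45 of 72 WT CD8 cells (62.5%, 50.3 to 73.6), 19 of 78 KO CD4 cells (24.4%, 15.3 to 35.4) and 25 of 74 WT CD4 cells (33.8%, 23.2 to 45.7). These intervals cover counting error only. The median over all kept cells was 0 FPKM in KO CD8, KO CD4 and WT CD4 and 551 FPKM in WT CD8, and the highest cells reached 3231, 4241, 3111 and 3164 FPKM in KO CD8, WT CD8, KO CD4 and WT CD4. The WT CD8 interval overlapped none of the other 3, which overlapped each other. How often intervals stand apart in this way over all genes was not counted, for Pdcd1 or for the genes below. WT CD8 cells also had the highest median of detected genes. Among cells with detection the median level was 727 FPKM in KO CD8, 1403 FPKM in WT CD8, 381.6 FPKM in KO CD4 and 327.3 FPKM in WT CD4. Pdcd1 was thus the gene of the 4 whose level, and not its share alone, was high in WT CD8 cells. No WT CD8 cell with detection was under 10 FPKM, against 2 KO CD8, 3 KO CD4 and 5 WT CD4 cells.

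Havcr2 was the rarest of the 4 in KO CD8, KO CD4 and WT CD4 cells. It was detected in 9 of 77 KO CD8 cells (11.7%, 5.49 to 21.0), 33 of 72 WT CD8 cells (45.8%, 34.02 to 58), 9 of 78 KO CD4 cells (11.5%, 5.41 to 20.8) and 11 of 74 WT CD4 cells (14.9%, 7.66 to 25.0). The median over all kept cells was 0 FPKM on every plate, and the highest cells had 1457, 1672, 1276 and 1309 FPKM in the same order. Only the WT CD8 interval stood apart from the other 3. Levels among cells with detection had medians of 514 FPKM in KO CD8, 337.4 FPKM in WT CD8, 396 FPKM in KO CD4 and 235.3 FPKM in WT CD4, with quartiles that overlapped on all plates. The 5 highest cells carried 88.2% of the summed Havcr2 FPKM in KO CD8, 87.1% in KO CD4 and 85.5% in WT CD4, against 38.2% in WT CD8. A high share is set by the few cells with detection, 9, 9 and 11 on the first plates named against 33 in WT CD8.

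Lag3 was detected in 19 of 77 KO CD8 cells (24.7%, 15.6 to 35.8), 46 of 72 WT CD8 cells (63.9%, 51.7 to 74.9), 21 of 78 KO CD4 cells (26.9%, 17.5 to 38.2) and 14 of 74 WT CD4 cells (18.9%, 10.7 to 29.7). Its median over all kept cells was 0 FPKM in KO CD8, KO CD4 and WT CD4 and 233.03 FPKM in WT CD8, with highest cells at 4595, 5170, 4232 and 5035 FPKM in KO CD8, WT CD8, KO CD4 and WT CD4. Again the WT CD8 interval lay above the other 3, which overlapped. The order of the levels was not that of the shares: cells with detection had a median of 1054 FPKM in KO CD8, 601 FPKM in WT CD8, 580 FPKM in KO CD4 and 1087 FPKM in WT CD4.

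Cd274 was detected in 18 of 77 KO CD8 cells (23.4%, 14.5 to 34.4), 10 of 72 WT CD8 cells (13.9%, 6.87 to 24.1), 36 of 78 KO CD4 cells (46.2%, 34.8 to 57.8) and 19 of 74 WT CD4 cells (25.7%, 16.2 to 37.2). Its median over all kept cells was 0 FPKM in KO CD8, WT CD8 and WT CD4 and 0.65 FPKM in KO CD4, and the highest cells had 1030, 341.8, 1062 and 1039 FPKM in KO CD8, WT CD8, KO CD4 and WT CD4. The KO CD4 interval lay above those of both CD8 plates and overlapped that of WT CD4. Levels among cells with detection had medians of 117.4 FPKM in KO CD8, 54.6 FPKM in WT CD8, 233.6 FPKM in KO CD4 and 141.8 FPKM in WT CD4. At 100 FPKM or more stood 62.7% of the cells with Cd274 detected, against 84.2% for Pdcd1, 82.3% for Havcr2 and 83% for Lag3, over the 4 plates. An antisense gene overlaps Cd274 in the annotation, and the sources used here do not say whether counting used the strand.

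**Figure D1:**
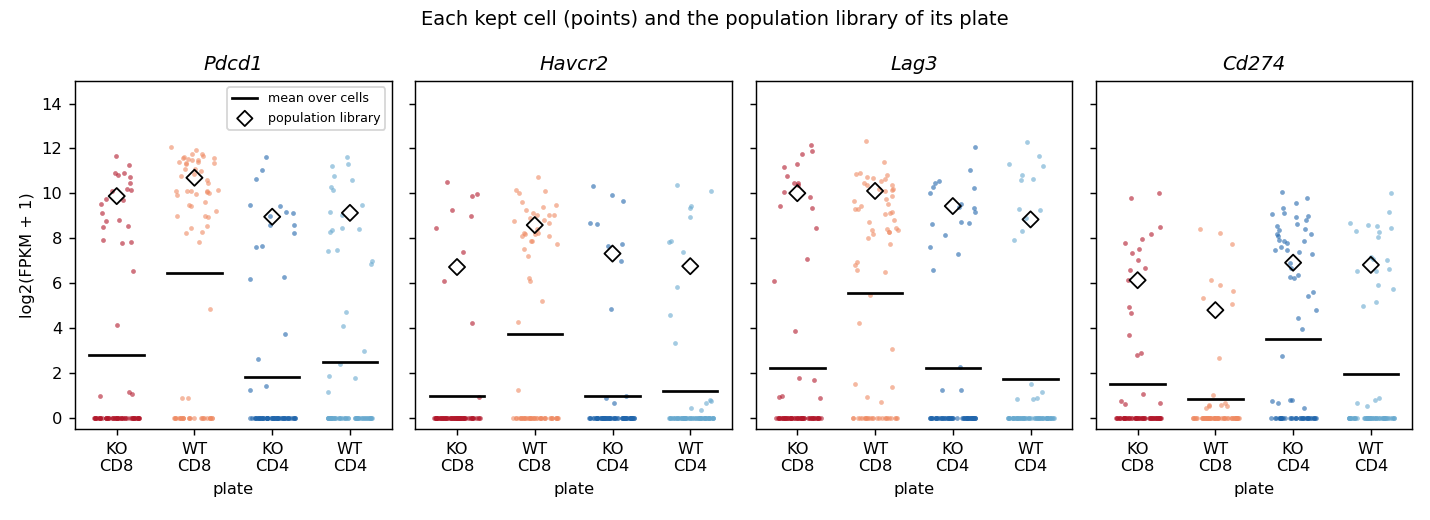
Level of each gene in each kept cell as log2(FPKM + 1), with plates along the horizontal axis. Points are cells, black lines are means over the cells of a plate, and open diamonds are the population library of that plate; most cells lie at 0 and the rest mainly above 100 FPKM, and the WT CD8 plate has the highest mean for Pdcd1 (6.45), Lag3 (5.57) and Havcr2 (3.74).

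**Figure D2:**
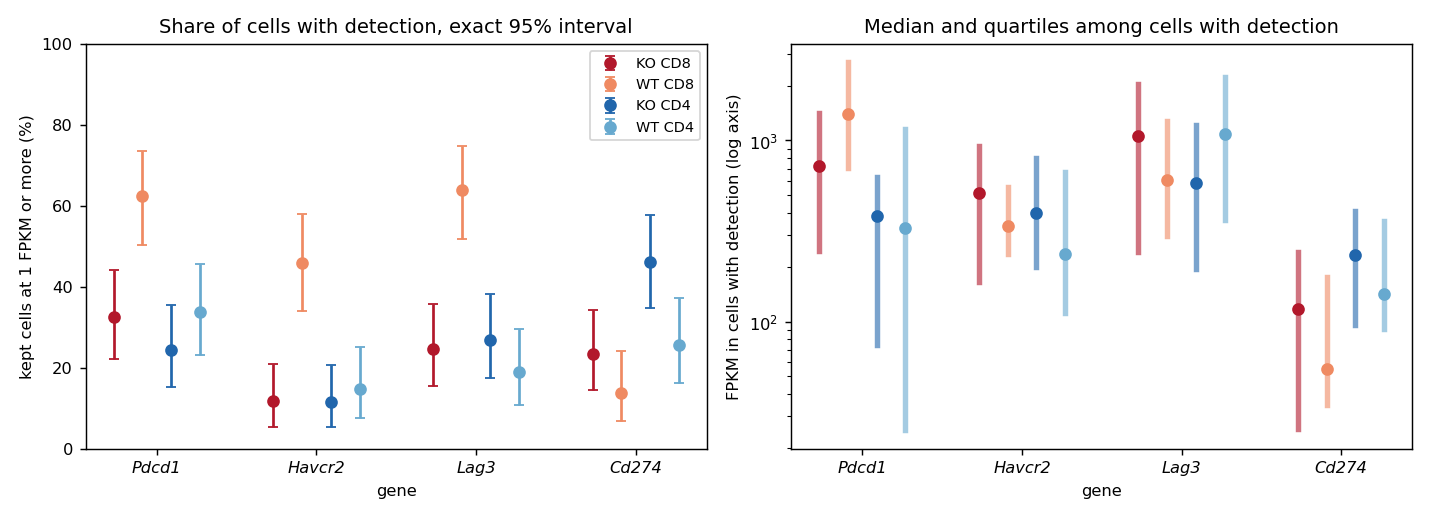
Left, percentage of kept cells with each gene at 1 FPKM or more, with exact 95% intervals; right, median (point) and quartiles (bar) of FPKM among those cells on a log axis. The WT CD8 plate stands above the others in share for Pdcd1 (62.5%), Havcr2 (45.8%) and Lag3 (63.9%), and in level for Pdcd1 (median 1403 FPKM).

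Against WT CD8, the KO CD8 plate had lower mean log2(FPKM + 1) for the 3 receptors. The mean of Pdcd1 was 2.82 ± 4.37 in KO CD8 and 6.45 ± 5.11 in WT CD8 (SD over cells), a difference of -3.63. Lag3 had means of 2.22 ± 4.14 in KO CD8 and 5.57 ± 4.59 in WT CD8, a difference of -3.35. Havcr2 had means of 0.98 ± 2.77 in KO CD8 and 3.74 ± 4.27 in WT CD8, a difference of -2.75. Ordered from the most negative difference, these were places 2, 5 and 6 of 8117 genes, whose median difference was -0.22. Cd274 had means of 1.503 ± 2.93 in KO CD8 and 0.83 ± 2.12 in WT CD8, a difference of 0.67. Differences of -1 or below were found for 3 of the 4 genes and for 9.19% of all genes, and differences of 1 or above for 0 of the 4 and for 2.07% of all genes.

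Split into share and level, the receptors differed in kind. Among cells with detection, the mean log2 level of Pdcd1 was 8.66 ± 2.81 in KO CD8 and 10.28 ± 1.42 in WT CD8, which is 1.62 log2 lower in KO CD8. That of Lag3 was 8.84 in KO CD8 and 8.68 in WT CD8, and that of Havcr2 8.31 in KO CD8 and 8.15 in WT CD8, both 0.16 log2 higher in KO CD8. The lower KO CD8 mean of Havcr2 and Lag3 thus came with fewer cells with detection, and that of Pdcd1 with fewer cells and with lower levels in them. Fewer cells of a kind and a failure to detect low RNA cannot be told apart here.

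The population libraries gave a narrower picture. Pdcd1 stood at 940 FPKM in KO CD8 and 1658 FPKM in WT CD8, Havcr2 at 104.6 FPKM in KO CD8 and 384.3 FPKM in WT CD8, and Lag3 at 1029 FPKM in KO CD8 and 1103 FPKM in WT CD8. The ratio of KO CD8 to WT CD8 was thus 0.57 for Pdcd1, 0.27 for Havcr2 and 0.93 for Lag3, so the difference of Lag3 between the single cells was nearly absent from the population wells. Ratios of the arithmetic means of the cells were 0.28 for Pdcd1, 0.32 for Havcr2 and 0.62 for Lag3. In the population libraries fewer cells of a type and less RNA per cell cannot be told apart. The 7 myeloid markers summed to 389.5 FPKM in KO CD8, 329.9 FPKM in WT CD8, 321.9 FPKM in KO CD4 and 50.1 FPKM in WT CD4 population wells, with 1, 0, 3 and 4 of them at 0 in that order, and their part in these values was not tested. Cd274 stood at 69.3 FPKM in KO CD8 and 26.9 FPKM in WT CD8.

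In CD4 cells the receptors differed little between the plates and Cd274 differed most. Cd274 had means of 3.51 ± 3.90 in KO CD4 and 1.94 ± 3.32 in WT CD4, a difference of 1.57, place 7016 of 7063 genes from the most negative. Its level among cells with detection differed by 0.10 log2 and its population value by a ratio of 1.07, at 120 FPKM in KO CD4 and 111.8 FPKM in WT CD4. Pdcd1 differed by -0.68, Havcr2 by -0.20 and Lag3 by 0.49, against a median of -0.04 over all genes. Differences of 1 or above were found for 1 of the 4 genes and for 2.53% of all genes, and differences of -1 or below for 0 of the 4 and for 2.51% of all genes. The population values were 497 FPKM in KO CD4 and 560 FPKM in WT CD4 for Pdcd1, 158.8 FPKM in KO CD4 and 107.3 FPKM in WT CD4 for Havcr2, and 691 FPKM in KO CD4 and 458 FPKM in WT CD4 for Lag3. For Havcr2 the population ratio of 1.48 ran against the difference between the cells. None of the 3 receptors kept its CD4 direction under every alternative: without cells with Foxp3 the KO minus WT difference was 0.44 for Pdcd1 and 0.10 for Havcr2, and for Lag3 it was -0.32 with arithmetic means and -0.02 among cells with 2000 or more detected genes.

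Cells with more detected genes more often showed the receptors. The correlation over cells between log2 level and number of detected genes ranged from 0.15 to 0.51 for Pdcd1, 0.36 to 0.53 for Havcr2, 0.39 to 0.57 for Lag3 and 0.08 to 0.29 for Cd274 over the 4 plates. When 54 KO CD8 cells were paired with 54 WT CD8 cells within 200 detected genes of each other, the shares in KO CD8 and WT CD8 cells stayed within the intervals given above for every gene. None of the 4 genes had any FPKM in the 4 wells without a cell.

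Between the cell types, limma on the 4 plate means, with source as a block, called Pdcd1, Lag3 and Havcr2 higher and Cd274 lower in CD8 than in CD4. The CD8 minus CD4 difference was 2.48 ± 0.51 log2 for Pdcd1 (SE, adjusted p = 0.000176), 1.92 ± 0.48 for Lag3 (adjusted p = 0.00358), 1.27 ± 0.39 for Havcr2 (adjusted p = 0.0234) and -1.56 ± 0.41 for Cd274 (adjusted p = 0.00578). Of 8427 genes, 533 (6.32%) were called higher and 94 (1.12%) lower in CD8. The spread in this fit is pooled over all genes, so the SE and p-values do not measure the spread of a single gene between sources. The 2 sources were far apart for the receptors. In KO4, CD8 minus CD4 was 1.01 for Pdcd1, 0.01 for Lag3 and -0.00 for Havcr2, whereas in WT4 it was 3.95, 3.84 and 2.55. Cd274 kept its direction, with -2.01 in KO4 and -1.11 in WT4. The receptor calls thus rest on the WT4 plates, and none of the 4 calls held in the population libraries (adjusted p from 0.299 to 0.722) or without the source block (adjusted p from 0.130 to 0.274).

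In CD8 cells Havcr2 was found within the cells with Lag3 at the limit of 1 FPKM, while Pdcd1 and Lag3 overlapped in part. All 9 KO CD8 and all 33 WT CD8 cells with Havcr2 also had Lag3, and 9 and 32 of them had Pdcd1. Havcr2 was found in 0 of 58 KO CD8 cells and 0 of 26 WT CD8 cells without Lag3, which allows shares of up to 6.16% and 13.2% (exact 95% interval). Over both CD8 plates, Lag3 was detected in 42 of 42 cells with Havcr2 (91.6% to 100%) and in 21.5% of those without it (14.1 to 30.5). Pdcd1 was detected in 41 of 42 cells with Havcr2 (87.4% to 99.9%) and in 27.1% of those without it (18.96 to 36.6). Cells with Havcr2 had a median of 3241 detected genes, against 2200 in CD8 cells without it.

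Some combinations were not seen in CD8 cells. Of KO CD8 cells, 9 (11.7%) had all 3 receptors, 7 had Pdcd1 and Lag3, 9 had Pdcd1 alone, 3 had Lag3 alone and 49 (63.6%) had none. Of WT CD8 cells, 32 (44.4%) had all 3, 8 had Pdcd1 and Lag3, 5 had Pdcd1 alone, 5 had Lag3 alone, 1 had Havcr2 and Lag3 and 21 (29.2%) had none. No CD8 cell had Havcr2 at 1 FPKM or more alone or with Pdcd1 only. A KO CD8 cell without Pdcd1 or Lag3 held Havcr2 at 0.92 FPKM, just under this limit. The WT CD8 cell with Havcr2 and Lag3 alone held them at 1.37 and 1.88 FPKM. The limit thus falls among values of about a single read. Cells with all 3 were also deeper, with medians of 3235 detected genes in KO CD8 and 3281 in WT CD8, against 2199 in KO CD8 and 2129 in WT CD8 for cells with none.

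Levels were highest where all 3 were detected. In KO CD8 cells the median of Pdcd1 was 244.3 FPKM where it was the only receptor (9 cells), 430 FPKM with Lag3 alone beside it (7 cells) and 1424 FPKM with all 3 (9 cells). In WT CD8 cells it was 1053 FPKM alone (5 cells), 649 FPKM with Lag3 (8 cells) and 1811 FPKM with all 3 (32 cells). Lag3 had medians of 133.5 FPKM alone (3 cells), 1054 FPKM with 1 other receptor (7 cells) and 1429 FPKM with all 3 (9 cells) in KO CD8. In WT CD8 cells these medians were 44.01 FPKM (5 cells), 310.65 FPKM (9 cells) and 903 FPKM (32 cells). The lowest and highest cells of these sets overlapped widely.

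**Figure D3:**
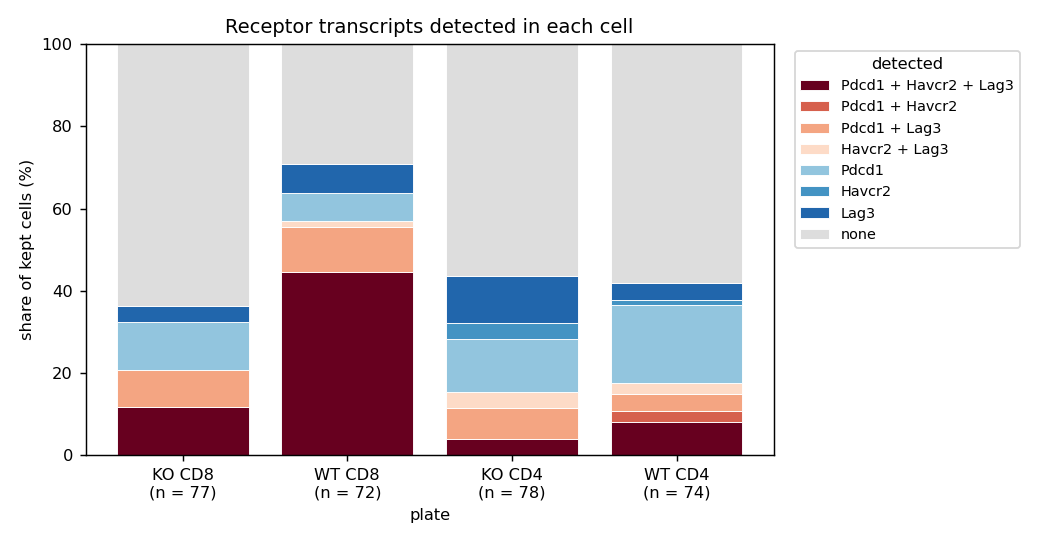
Percentage of kept cells of each plate by the combination of Pdcd1, Havcr2 and Lag3 detected at 1 FPKM or more. Cells with all 3 made up 11.7% of KO CD8, 44.4% of WT CD8, 3.85% of KO CD4 and 8.11% of WT CD4 cells, and at this limit Havcr2 without Lag3 occurred in CD4 cells but in no CD8 cell.

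The phi coefficient, a correlation of the presence of 2 genes over the cells of a plate, was 0.63 in KO CD8, 0.67 in WT CD8, 0.26 in KO CD4 and 0.31 in WT CD4 for Pdcd1 with Lag3. For Havcr2 with Lag3 it was 0.64, 0.69, 0.32 and 0.57, and for Pdcd1 with Havcr2 0.52, 0.65, 0.08 and 0.34 in the same order. Cells of a plate share their preparation and differ in depth, and these coefficients are descriptions without a p-value. Among the cells at or above the median of detected genes of their plate, phi of Pdcd1 with Lag3 was 0.74 in KO CD8 and 0.88 in WT CD8, against 0.41 in KO CD8 and 0.42 in WT CD8 among the cells below it. This pair was thus tied more closely in the deeper CD8 cells. In CD4 cells it ran the other way, with phi of 0.20 in the deeper and 0.30 in the shallower KO CD4 cells, and 0.23 and 0.32 in WT CD4. Cd274 had phi between -0.11 and 0.19 with each receptor on each plate.

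In CD4 cells the receptors overlapped less. All 3 were detected in 3 of 78 KO CD4 cells and 6 of 74 WT CD4 cells, and Pdcd1 alone in 10 KO CD4 and 14 WT CD4 cells. Of the 20 CD4 cells with Havcr2, 14 had Lag3 and 11 had Pdcd1. A companion of Havcr2 in CD4 cells was Foxp3, the transcription factor that defines regulatory T cells. Foxp3 was detected in 18 of 20 CD4 cells with Havcr2 (68.3% to 98.8%) and in 34.8% of those without it (26.8 to 43.6). The co-inhibitory receptor gene Tigit was detected in 100% of KO CD4 and 90.9% of WT CD4 cells with Havcr2. Without Havcr2 these shares were 59.4% and 57.1%. CD4 cells with Havcr2 had a median of 2834 detected genes, against 2014.5 in those without it.

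Split by Foxp3, Havcr2 was detected in 8 of 37 KO CD4 cells with Foxp3 and 1 of 41 without it, and in 10 of 27 WT CD4 cells with Foxp3 and 1 of 47 without it. Lag3 was detected in 13 of 37 KO CD4 cells with Foxp3 and 8 of 41 without it, and in 11 of 27 WT CD4 cells with Foxp3 and 3 of 47 without it. Pdcd1 did not follow this split: it was found in 5 of 37 KO CD4 cells with Foxp3 and 14 of 41 without it, and in 10 of 27 WT CD4 cells with Foxp3 and 15 of 47 without it. Cd274 was detected in 20 of 37 KO CD4 cells with Foxp3 and 16 of 41 without it, and in 9 of 27 WT CD4 cells with Foxp3 and 10 of 47 without it. Its share was thus higher in KO CD4 than in WT CD4 in both kinds of cell, with intervals that overlapped in each. Depth was alike in the KO CD4 sets, with medians of 2076 detected genes with Foxp3 and 2095 without it, and was 2316 with Foxp3 and 1966 without it in WT CD4.

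Tcf7 encodes TCF-1, a transcription factor of naive, memory and stem-like exhausted T cells. Among CD8 cells with Tcf7, Havcr2 was detected in 0 of 47 KO CD8 cells and 0 of 19 WT CD8 cells (exact 95% limits 7.55% and 17.6%). The KO CD8 cell with Havcr2 at 0.92 FPKM, under the limit for detection, was among those with Tcf7. Among CD8 cells without Tcf7, Havcr2 was detected in 9 of 30 KO CD8 cells (30%, 14.7 to 49.4) and 33 of 53 WT CD8 cells (62.3%, 47.9 to 75.2). Pdcd1 and Lag3 were not absent from cells with Tcf7: Pdcd1 was in 9 of 47 KO CD8 and 5 of 19 WT CD8 cells, and Lag3 in 7 of 47 KO CD8 and 4 of 19 WT CD8 cells. Without Tcf7, Pdcd1 was in 16 of 30 KO CD8 and 40 of 53 WT CD8 cells, and Lag3 in 12 of 30 KO CD8 and 42 of 53 WT CD8 cells. The KO CD8 plate held the larger share of cells with Tcf7, 61.04% against 26.4% in WT CD8. Within the cells without Tcf7 the Lag3 share was 40% in KO CD8 (22.7 to 59.4) and 79.2% in WT CD8 (65.9 to 89.2). For Pdcd1 and Havcr2 the intervals of these cells overlapped between the plates. The intervals cover counting error only, and the cells without Tcf7 had more detected genes in WT CD8. The part of the Tcf7 share in the difference between the plates was not tested. Median detected genes were 2249 with Tcf7 and 2243 without it in KO CD8 cells, and 2317 with Tcf7 and 2592 without it in WT CD8 cells, so depth was alike on the KO CD8 plate but lower with Tcf7 on the WT CD8 plate, which held most of the cells with Havcr2.

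**Figure D4:**
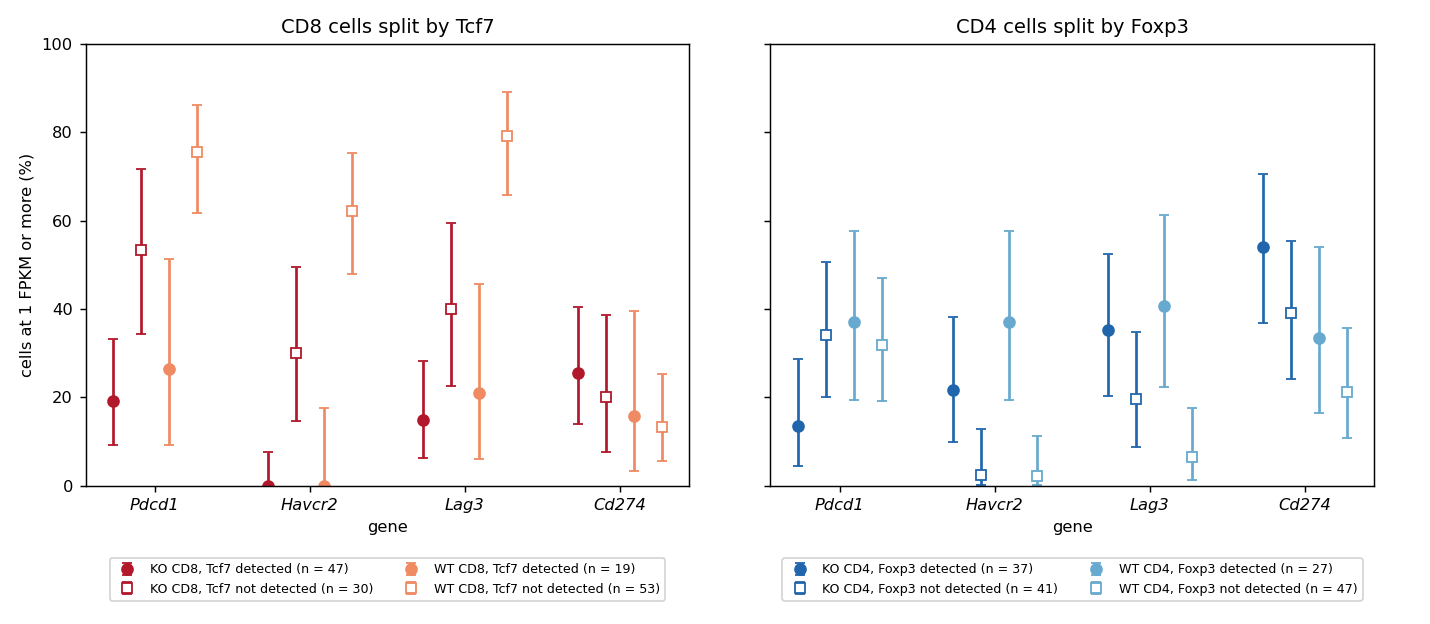
Percentage of cells with each gene at 1 FPKM or more, with exact 95% intervals, in CD8 cells split by detection of Tcf7 (left) and CD4 cells split by detection of Foxp3 (right). The share with Havcr2 at this limit is 0 in CD8 cells with Tcf7 on both plates, and in CD4 cells it is 21.6% of KO and 37.04% of WT cells with Foxp3, against 2.44% and 2.13% without Foxp3.

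To find the genes whose pattern over cells was most like each member, the Pearson correlation of log2(FPKM + 1) was taken within each plate after adjusting both genes for the number of detected genes, and averaged over plates. Genes detected in 10% or more of the kept cells of every plate used were ranked, 5263 for Pdcd1, Lag3 and Cd274. For Havcr2 the 2 WT plates were used, since the KO plates held 9 cells with Havcr2 each, and 6011 genes were ranked. The receptors found each other. Lag3 was first and Havcr2 second for Pdcd1, Lag3 was first and Pdcd1 place 6 for Havcr2, and Havcr2 was first and Pdcd1 place 3 for Lag3.

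Beside Pdcd1, r with Lag3 was 0.62 in KO CD8, 0.71 in WT CD8, 0.22 in KO CD4 and 0.23 in WT CD4, and with Havcr2 0.52, 0.61, 0.09 and 0.27. Bhlhe40, a transcriptional repressor induced by activation, followed with 0.38, 0.58, 0.09 and 0.43. The co-inhibitory receptor genes Tigit (mean r 0.35) and Ctla4 (mean r 0.33) and Rbpj, the DNA-binding partner of Notch (mean r 0.30), completed the 6 highest. Ctla4 had r of 0.71 in WT CD8 and -0.12 in KO CD4, so its place rests on 3 plates. The lowest was Ccr7, the lymph node homing receptor, with -0.35, -0.29, -0.13 and -0.14, followed by Eif2ak2 and Sema4b (mean r -0.22 each). An r of 0.3 or more with Pdcd1 was reached by 1.4% of genes in KO CD8, 3.14% in WT CD8, 1.12% in KO CD4 and 1.29% in WT CD4.

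Beside Havcr2, r with Lag3 was 0.70 in WT CD8 and 0.56 in WT CD4. Adam8, a metalloprotease gene, had 0.47 and 0.51, Tigit 0.55 and 0.43, Tox, a nuclear factor needed for exhausted cells, 0.58 and 0.32, and B4galt5, a galactosyltransferase gene, 0.42 and 0.47, in WT CD8 and WT CD4. The lowest were Gm12505 (mean r -0.47), Emb (-0.41), an adhesion protein gene, and Slfn1 (-0.41), a member of the Schlafen family. Slfn1 was detected in 0% of WT CD4 cells with Havcr2 and 58.7% of those without it. An r of 0.3 or more was reached by 2.28% of genes in WT CD8 and 2.05% in WT CD4.

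Beside Lag3, Havcr2 had a mean r of 0.53 and a positive r on all 4 plates, at 0.54 in KO CD8, 0.70 in WT CD8, 0.33 in KO CD4 and 0.56 in WT CD4. Tigit followed at 0.40, 0.64, 0.41 and 0.36, and then Pdcd1, Entpd1, which encodes the ectonucleotidase CD39 (mean r 0.37), Rbpj (0.37) and Irf8, an interferon regulatory factor gene (0.36). Irf8 was detected in 50% of WT CD8 cells with Lag3 and 0% of those without it. The lowest was Emb, at -0.40, -0.50, -0.56 and -0.48, then S1pr1, which lets T cells leave tissue (-0.39), and Pdcd4, an inhibitor of translation (-0.38). Emb was detected in 38.1% of KO CD4 cells with Lag3 and 80.7% of those without it. An r of 0.3 or more was reached by 1.8% of genes in KO CD8, 2.12% in WT CD8, 2.13% in KO CD4 and 2.05% in WT CD4.

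Cd274 had no such company. Its highest mean r was 0.25, with 2700089E24Rik, followed by Fam50a (0.24), Icam1, an adhesion molecule gene (0.22), Spin1 (0.22), Minpp1 (0.20) and Anxa4 (0.20). Its lowest were Ctla2a (-0.21), Mphosph8 (-0.20) and Mlf2 (-0.19). Among 5263 genes Pdcd1 was place 4135, Lag3 place 4558 and Havcr2 place 5054 for Cd274, with mean r of -0.05, -0.07 and -0.10. An r of 0.3 or more was reached by 0.757% of genes in KO CD8, 1.15% in WT CD8, 0.664% in KO CD4 and 0.788% in WT CD4.

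**Figure D5:**
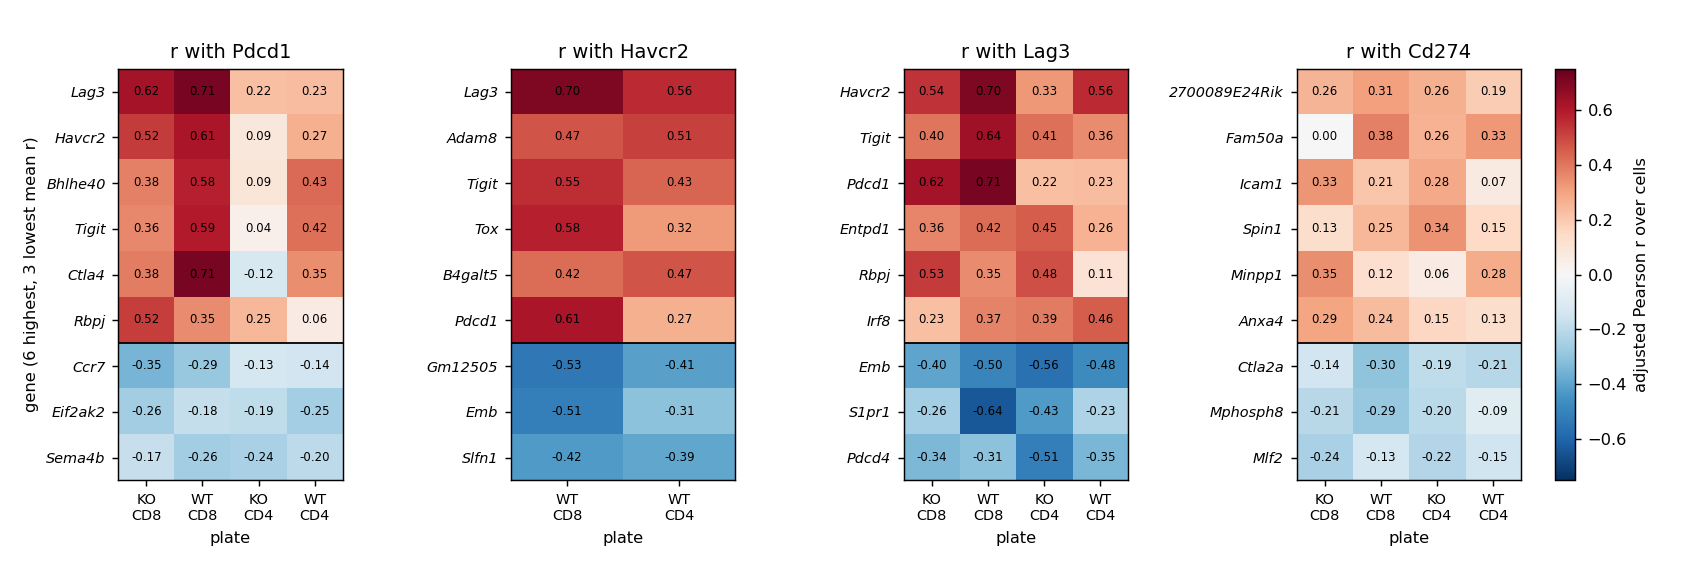
Adjusted Pearson r over the cells of a plate (columns) between each of the 4 genes and the 6 genes of highest and 3 of lowest mean r (rows, separated by a line), printed in each field. The receptors are among each other's highest rows, with r of Pdcd1 and Lag3 at 0.62 in KO CD8 and 0.71 in WT CD8, while the highest mean for Cd274 is 0.25.

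The 20 genes of highest r in the WT plates were then read in the KO plates, which had no part in choosing them. For Lag3 the median r was 0.23 in the KO plates and 0.37 in the WT plates, and 17 of 20 were positive in the KO plates, where 49.2% of all genes were. For Pdcd1 the median was 0.13 in the KO plates and 0.37 in the WT plates, with 18 of 20 positive against 49.3% of all genes. For Cd274 the median was -0.01 in the KO plates and 0.26 in the WT plates, with 7 of 20 positive against 50.1% of all genes. The WT companions of Lag3 and Pdcd1 thus kept their sign in most cases on plates of the other source, and those of Cd274 did not. A mean r of 0.2 or more in the KO plates was reached by 12 of 20 for Lag3, 5 of 20 for Pdcd1 and 1 of 20 for Cd274. Of all genes, 2.98%, 1.63% and 0.95% reached it in the same order.

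Known partners of the receptors passed 1 log2 between KO and WT about as often as other genes in CD8. Of the 13 measured, 1 had a difference of -1 or below and 0 of 1 or above in CD8, against 9.19% and 2.07% of all genes, and in CD4 the counts were 0 and 0, against 2.51% and 2.53%. Of 8 PD-1 partner genes, 5 were detected in 10% or more of cells on a plate: Pdcd1lg2, which encodes PD-L2, the phosphatase genes Ptpn11 and Ptpn6, Fbxo38, whose product marks PD-1 for degradation, and Cmtm6, which stabilises PD-L1. None of the 5 differed by 1 log2 or more between KO and WT in CD8 or CD4, and their median difference was -0.38 in CD8 and 0.19 in CD4, against -0.22 and -0.04 over all genes. Pdcd1lg2 was detected in 19.5% of KO CD8, 13.9% of WT CD8, 24.4% of KO CD4 and 14.9% of WT CD4 cells, and its r with Cd274 ranged from -0.05 to 0.17 although the genes are neighbours. Ptpn6, which encodes SHP-1, was called higher in CD8 by limma, with a CD8 minus CD4 difference of 2.59, and the other 4 were not called. Cd80, Rgmb and Cmtm4 stayed under 10% on every plate.

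Of 6 TIM-3 partner genes, 5 reached 10%, among them Lgals9, which encodes galectin-9, in 45.5% of KO CD8, 51.4% of WT CD8, 48.7% of KO CD4 and 44.6% of WT CD4 cells. Hmgb1, an alarmin and chromatin protein gene, was the 1 that differed by 1 log2 or more, at -1.18 in CD8, and the median of the 5 was -0.33 in CD8 and 0.04 in CD4. Ceacam1 was detected in 1.30% to 4.17% of cells. No TIM-3 partner gene had an r of 0.3 or more with Havcr2 in the WT plates. Of 8 LAG-3 partner genes, 3 reached 10%: Lgals3, which encodes galectin-3, and Adam10 and Adam17, whose proteases shed LAG-3. None differed by 1 log2 or more, and their median was -0.48 in CD8 and -0.14 in CD4. The ligand genes H2-Aa, H2-Ab1 and H2-Eb1, of MHC class II, were detected in 1.30% to 9.46% of cells, and Fgl1 and Clec4g in none of the kept cells. Class II transcripts were abundant in the population wells, where H2-Aa stood at 1218 FPKM in KO CD8, 1165 FPKM in WT CD8, 458.8 FPKM in KO CD4 and 176.7 FPKM in WT CD4, and H2-Ab1 at 1077, 2162, 388.2 and 121.01 FPKM in the same order.

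Of 13 other co-inhibitory receptor genes, 9 were measured in the CD8 comparison, and 3 had a difference of -1 or below: Entpd1 (-2.54), Tigit (-2.25) and Cd244 (-1.27), against 9.19% of all genes. Nt5e, which encodes CD73, had 1.18, where 2.07% of all genes reached 1, and the median of the 9 was -0.68. In CD4, 1 of 8 had a difference of 1 or above, Vsir at 1.07, against 2.53% of all genes, and the median was 0.39. On each plate 8 could be correlated, though not the same 8 on every plate. With Lag3, 3 of the 8 reached an r of 0.3 in KO CD8, 3 in WT CD8, 3 in KO CD4 and 1 in WT CD4. Of all genes, 1.8%, 2.12%, 2.13% and 2.05% did, in the same order. With Cd274 none of the genes correlated on a plate reached an r of 0.3. Btla, an inhibitory receptor gene measured on the CD4 plates alone, had an r with Pdcd1 of -0.24 in KO CD4 and -0.19 in WT CD4.

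Of 21 regulator genes, 20 were measured in CD8, where 4 had a difference of -1 or below and 1 of 1 or above, against 9.19% and 2.07% of all genes, with a median of 0.07. These were Tox (-2.75), Prdm1 (-1.27), Eomes (-1.20), Batf (-1.19) and, in the other direction, Tcf7 (2.89). Tox was detected in 15.6% of KO CD8 and 51.4% of WT CD8 cells, and its r with Lag3 was 0.28 in KO CD8, 0.47 in WT CD8, 0.24 in KO CD4 and 0.21 in WT CD4. Tcf7 had r with Lag3 of -0.29, -0.66, -0.22 and -0.11 and with Cd274 a mean r of 0.02. In CD4, 5 regulators had a difference of 1 or above, Nr4a1 (2.15), Irf4 (1.62), Irf1 (1.46), Nfil3 (1.16) and Batf (1.07), and 3 of -1 or below, Nfatc1 (-1.57), Id2 (-1.27) and Tbx21 (-1.003), with a median of 0.31 over 19 genes. Of all genes, 2.53% had 1 or above and 2.51% had -1 or below in CD4. Irf1, which acts downstream of interferons, had a mean r with Cd274 of 0.11.

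Of 11 effector genes, 6 had a difference of -1 or below in CD8, led by Gzmk (-3.91), Gzmb (-2.49) and Ccl3 (-1.80), with a median of -1.40, where 9.19% of all genes had -1 or below. Of 9 naive and memory genes, 6 had a difference of 1 or above in CD8, led by Il7r (4.04), Ccr7 (2.74) and Slamf6 (2.00), with a median of 1.68, where 2.07% of all genes had 1 or above. The chemokine gene Ccl3 had r of 0.48 in KO CD8 and 0.46 in WT CD8 with Pdcd1, 0.58 in KO CD8 and 0.54 in WT CD8 with Lag3, and 0.53 in WT CD8 with Havcr2. The granzyme gene Gzmk, measured in WT CD8 alone, had r of 0.40 with Pdcd1, 0.48 with Lag3 and 0.43 with Havcr2. In WT CD8 cells 6 of 9 effector genes reached an r of 0.3 with Pdcd1, 4 of 9 with Havcr2, 5 of 9 with Lag3 and 0 of 9 with Cd274, against 3.14%, 2.28%, 2.12% and 1.15% of all genes. In KO CD8 cells these counts were 2 of 10 with Pdcd1, 4 of 10 with Lag3 and 0 of 10 with Cd274, against 1.4%, 1.8% and 0.757% of all genes. No naive or memory gene reached an r of 0.3 with a receptor on any plate, and their median r in WT CD8 was -0.25 with Pdcd1, -0.21 with Havcr2 and -0.26 with Lag3.

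Cells in which a marker of melanoma, myeloid, B or stromal cells or of the other T cell lineage was detected were then set aside. Markers found in 20% or more of the cells of a plate that should lack them were not counted. These were Tyr, the stromal marker Pecam1 and, on the CD4 plates, Cd8b1, so CD4 cells with Cd8b1 alone were not set aside. Such cells made up 37.7% of KO CD8, 40.3% of WT CD8, 28.2% of KO CD4 and 33.8% of WT CD4 cells. Without them Pdcd1 was detected in 29.2% of KO CD8 and 69.8% of WT CD8 cells, Havcr2 in 12.5% of KO CD8 and 51.2% of WT CD8 cells, and Lag3 in 18.8% of KO CD8 and 72.1% of WT CD8 cells. The shares of all 3 receptors were thus further apart between the CD8 plates among the remaining cells. Cd274, which myeloid cells also express, was detected in 48.2% of KO CD4 and 22.4% of WT CD4 cells without such markers, against 40.9% of KO CD4 and 32% of WT CD4 cells with them.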

How the data were processed

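The deposited table holds FPKM with TMM normalization as made by the authors for 384 wells. Bowtie, RSEM and build mm10 are named per the submitters' processing notes, but the sources used here give no versions. RSEM estimates the split of reads that match several genes. The 4 genes and the lists were chosen with earlier results of these data known. WT4 and KO4 were read as 1 source each.

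Intervals of shares are exact (Clopper-Pearson, 95%) and take in counting error alone, since PCR copies are not independent molecules. Plate differences used means of log2(FPKM + 1) over genes detected in 10% or more of the kept cells of either plate compared, a scale that understates changes of low genes. CD8 and CD4 were compared with limma 3.58.1 (under R 4.3.3, with eBayes and a trend, Benjamini-Hochberg adjustment, threshold 0.05) on 4 plate means with source as a block and 1 residual degree of freedom. The prior degrees of freedom of this fit were infinite. The SE and p-values thus use a spread pooled over all genes, and not the spread of each gene between these plates. The pooled spread may be technical. Named genes were the members, per member the 6 highest and 3 lowest mean r, and the listed partners. All list symbols were found, Vsir under an older symbol, and Rgmb, Lair1, Id3, Pdpn and Procr, like others under 10%, entered no comparison. The scripts were tested on simulated data, and Python 3.11.15 was used. Promoters are RefSeq's, and positions come from GENCODE annotation of mm10. The number of values within 0.1 of whole reads (a median of 51.4% per cell) was too low to treat FPKM as counts. The result of 1 regulator gene is not reported here by name.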

Additional observations from a re-analysis of the deposited data

Results flagged for a closer look

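The mean log2 level of Lag3 differed in opposite directions in the 2 cell types, but the CD4 direction did not hold on every measure. It was lower in KO CD8 than in WT CD8 (difference -3.35) and higher in KO CD4 than in WT CD4 (difference 0.49), and the population libraries showed the same pair of signs, with ratios of 0.93 in CD8 and 1.51 in CD4. In CD4 the difference was -0.32 with arithmetic means, -0.02 among cells with 2000 or more detected genes and -0.71 for the level among cells with detection. The difference between the cell types was not tested, since each genotype has 1 plate per cell type.

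The 75 single-cell wells under 1000 detected genes, which enter no comparison, held some of these transcripts, whereas the wells without a cell held none. Lag3 was detected in 14 of them, Cd274 in 5, Pdcd1 in 3 and Havcr2 in 2.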

How the results depend on the processing

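Leaving out cells by the markers listed at first kept 2 KO CD8 cells and none of the other plates, so that setting gave no value, and the milder rule used above was chosen after seeing the data, as were arithmetic means in the cell type comparison and the use of all 4 plates for Havcr2. Of the alternative values of detected shares, 98 stayed within and 6 left the intervals reported. With 2000 or more detected genes, WT CD4 had Havcr2 in 26.8% and Lag3 in 34.1% of cells, and KO CD4 had Cd274 in 59.6%. Without Foxp3-positive cells, Havcr2 fell to 2.44% in KO CD4 and 2.13% in WT CD4, and Lag3 to 6.38% in WT CD4. Of 60 alternative KO minus WT differences, 57 stayed within the range the share intervals allow, but 5 changed sign, all in CD4. Pdcd1 (-0.68) had 0.44 without Foxp3-positive cells, Havcr2 (-0.20) had 0.10 without Foxp3-positive cells and 0.56 in the population libraries, and Lag3 (0.49) had -0.32 with arithmetic means and -0.02 among cells with 2000 or more detected genes. In CD8 the population libraries gave -0.82 for Pdcd1 and -0.10 for Lag3, and arithmetic means -0.68 for Lag3.

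The limma calls between CD8 and CD4 were the least stable results. The share of genes called higher in CD8 was 0.142% with a pseudocount of 10, 1.07% with arithmetic means, 2.75% among genes detected in 25% of cells, 3.30% with no filter, 0.593% with no replicate block, 0% in the population libraries, 1.19% without doubtful cells and 2.94% without Foxp3-positive CD4 cells, against 6.32%. The share called lower was 0.0831% with a pseudocount of 10, 0.692% with the 25% filter, 0.237% with no replicate block, 0% in the population libraries, 0.413% without doubtful cells and 0.167% without Foxp3-positive CD4 cells, against 1.12%. In the population libraries limma called 0 genes after adjustment and 1066 at an unadjusted p under 0.05.

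Pdcd1 (CD8 minus CD4) was no longer called with a pseudocount of 10 (1.78, adjusted p = 0.136), with no replicate block (2.48, 0.143), in the population libraries (1.24, 0.299) or without Foxp3-positive CD4 cells (2.25, 0.0575). Lag3 was no longer called with a pseudocount of 10 (1.21, 0.227), arithmetic means (0.81, 0.180), the 25% filter (1.92, 0.101), no block (1.92, 0.2001) or population libraries (0.92, 0.350). Havcr2 was no longer called with a pseudocount of 10 (0.80, 0.249), arithmetic means (0.92, 0.335), the 25% filter (1.27, 0.143), no block (1.27, 0.274), population libraries (0.62, 0.722) or without doubtful cells (1.39, 0.169). Cd274 was no longer called with a pseudocount of 10 (-0.95, 0.136), arithmetic means (-1.72, 0.0702), the 25% filter (-1.56, 0.0503), no block (-1.56, 0.130), population libraries (-1.40, 0.379), without doubtful cells (-1.56, 0.107) or without Foxp3-positive CD4 cells (-1.08, 0.139). With 1 source left out, with no test, the difference ranged from 1.01 to 3.95 for Pdcd1, 0.0072 to 3.84 for Lag3, -0.0032 to 2.55 for Havcr2 and -2.01 to -1.11 for Cd274, and the value of -0.0032 for Havcr2, from KO4 alone, has the opposite sign. Neither a pseudocount of 0.1 nor the absence of a filter ended any of these 4 calls. The causes were not tested.

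Of 27 alternative mean r between the 4 genes, 22 stayed within the SD between plates, which for pairs with Havcr2 is wide and comes from 2 plates. Pdcd1 with Havcr2, counted as within it, had 0.27 without doubtful cells against 0.44. Havcr2 with Lag3 had 0.47 by Spearman. Cd274 with Havcr2 had 0.10 unadjusted for detected genes, 0.10 without doubtful cells and -0.10 over all 4 plates, and Cd274 with Lag3 had 0.020 unadjusted. Among genes detected in 25% of cells, 4 of the 6 highest were shared for Pdcd1, 3 for Havcr2, 2 for Lag3 and 2 for Cd274. The phi of Cd274 and Lag3 was -0.013 in the deeper cells. With 72 to 78 cells a plate and 9 cells with Havcr2 on each KO plate, the width of the intervals limits what can be said of the rarer combinations.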
